A study of Mus musculus with 7 samples.

Results

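The ovulation and cumulus expansion genes examined here were Areg, Ereg, Ptgs2, Tnfaip6, Ptx3, Pgr, Runx1, Runx2, Adamts1 and Edn2, 10 genes chosen by symbol as ones that the luteinising hormone (LH) surge induces in the ovary. All 10 were found, each as 1 row, among the 34866 genes of the table. The ovaries came from female mice aged 8 to 12 weeks, and 7 RNA-seq libraries were made. Of these, 2 were from Abcg5/g8 KO mice fed VOFD and labelled fertile (here KO VOFD), 3 from Abcg5/g8 KO mice fed CD and labelled infertile (KO CD), and 2 from WT mice fed CD and labelled fertile (WT CD). Both knockout groups carry the label of a knockout of Abcg5 and Abcg8, the genes of a sterol transporter pair, and they differ in diet. What the diet names stand for, the mouse strain, the stage of the oestrous cycle and any hormone treatment are not given here. Ovaries were homogenised singly. Nothing says that the libraries came from different animals, so each p-value reflects the variation among these libraries, some of which may be technical.

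Before ovulation the LH surge acts on the wall of the largest follicles. Mural granulosa cells release the epidermal growth factor (EGF)-like ligands amphiregulin and epiregulin, which pass the signal to the cumulus cells around the oocyte. Cumulus cells then make prostaglandins and a hyaluronan matrix, held together by TSG-6 and pentraxin 3, and the progesterone receptor and RUNX factors switch on the proteases and the constricting peptide endothelin 2 that precede rupture of the follicle. In mice most of these transcripts are known to rise and fall within hours.

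The windows just upstream of 4 members are shown because these genes show most plainly how the members differed from each other. Adamts1 and Edn2 were highest in the same library, while Areg and Ptgs2 stood at or below 1.03 TPM in every library. Each line gives 250 bases before the gene's start, from RefSeq (GRCm38.p6), read along the gene's strand.
Adamts1 (chr16:85803114-85803363, minus strand): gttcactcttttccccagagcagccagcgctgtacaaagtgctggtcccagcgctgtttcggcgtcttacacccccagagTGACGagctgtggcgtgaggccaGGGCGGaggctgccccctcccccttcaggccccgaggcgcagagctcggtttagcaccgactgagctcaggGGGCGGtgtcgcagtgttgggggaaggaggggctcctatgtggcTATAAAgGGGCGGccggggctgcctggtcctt
Edn2 (chr4:120160956-120161205, plus strand): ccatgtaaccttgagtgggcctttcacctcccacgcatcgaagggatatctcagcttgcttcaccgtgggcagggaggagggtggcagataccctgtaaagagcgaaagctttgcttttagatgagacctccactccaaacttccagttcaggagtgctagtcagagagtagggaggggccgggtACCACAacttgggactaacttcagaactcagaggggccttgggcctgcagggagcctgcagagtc
Areg (chr5:91139349-91139598, plus strand): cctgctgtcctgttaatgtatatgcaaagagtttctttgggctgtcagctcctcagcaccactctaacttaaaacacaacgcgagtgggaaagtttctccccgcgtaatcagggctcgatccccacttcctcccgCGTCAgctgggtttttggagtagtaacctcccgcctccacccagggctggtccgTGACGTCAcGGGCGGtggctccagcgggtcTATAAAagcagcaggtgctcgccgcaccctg
Ptgs2 (chr1:150099781-150100030, plus strand): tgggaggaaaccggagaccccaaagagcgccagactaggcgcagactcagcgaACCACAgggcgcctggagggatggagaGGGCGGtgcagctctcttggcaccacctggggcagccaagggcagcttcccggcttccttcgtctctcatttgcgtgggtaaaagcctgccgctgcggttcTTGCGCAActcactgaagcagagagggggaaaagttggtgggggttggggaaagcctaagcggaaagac
Capitals mark matches to any of 8 motifs searched on both strands: TGACGTCA (the cyclic AMP response element, CRE), TGACG (its core), TGTGGT (a RUNX site), TTGCGCAA (a C/EBP palindrome), CACGTG (an E-box), GGGCGG (an SP1 site), TATAAA (the TATA box) and TGTTCT (part of the progesterone receptor element). Areg held the whole CRE from base -61 to base -54, counted back from the start, and that match contains the core on both strands. It also held another core from base -115 to base -111, an SP1 site and a TATA box. Of all 32851 windows of this length, 1.55% held the whole CRE and 17.8% the core. Ptgs2 held the C/EBP palindrome from base -69 to base -62 (0.164% of all windows), a RUNX site from base -197 to base -192 (14.0% of all windows) and an SP1 site. Adamts1 held 3 SP1 sites (at least 1 stood in 32.7% of all windows), a CRE core from base -170 to base -166 and a TATA box from base -32 to base -27 (12.4% of all windows). Edn2 held 1 RUNX site from base -65 to base -60 and no other motif of the 8. Windows were found for 9 of the 10 members, Runx1 having 2. A match is a stretch of letters and not a measured binding site.

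The libraries had between 14267 and 14982 genes at 1 TPM or more (TPM is a share of transcripts, scaled for gene length). The targeted genes did not separate the knockout labels. Abcg5 was at 0.156 and 0.212 TPM in KO VOFD, at 0.0360, 0.0268 and 0.128 TPM in KO CD, and at 0.0767 and 0.149 TPM in WT CD. Abcg8 was listed at 0 in both KO VOFD libraries, at 0.0486, 0.0554 and 0.156 TPM in KO CD, and at 0.0730 and 0.0423 TPM in WT CD. Both genes were near 0 everywhere, and the highest value of each was in a library labelled knockout. Ovarian markers were present throughout, the 8 oocyte genes summing to between 212 and 599 TPM. KO CD library 1 stood apart from the others in several marker lists, and fold changes of members that move by more than 1.5 times without it are given both ways. KO CD library 3 had the lowest sum of the 13 mitochondrially encoded genes, at 116828 TPM against 154035 to 183023 TPM in the other 6. The 8 neutrophil and mast cell markers summed to 37.9, 189 and 111 TPM in KO CD libraries 1, 2 and 3, against 29.1 to 36.4 TPM in the 4 fertile libraries. The part of these differences in the values of the members was not tested.

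Adamts1, Runx1, Runx2 and Ptx3 had the highest levels among the members, and Areg, Ptgs2, Ereg and Pgr the lowest. Over the 7 libraries Adamts1 had the highest mean level at 20.2 ± 26.1 TPM (SD, n = 7), followed by Runx1 at 13.2 ± 5.97 TPM, Runx2 at 9.50 ± 6.37 TPM and Ptx3 at 5.25 ± 1.59 TPM. Edn2 averaged 2.47 ± 1.78 TPM, Tnfaip6 1.17 ± 0.587 TPM and Pgr 0.744 ± 0.405 TPM. Ereg averaged 0.508 ± 0.135 TPM, Ptgs2 0.387 ± 0.303 TPM and Areg 0.142 ± 0.181 TPM. Without KO CD library 1 the mean of Adamts1 was 10.4 ± 1.96 TPM and that of Runx1 11.3 ± 3.39 TPM (SD, n = 6), so the top place of Adamts1 rests on that library. Of the 9 pairs of neighbours in that order, 1 pair, Ptx3 above Edn2, differed by more than both of their SDs. A gene was tested where at least 2 libraries reached 1 TPM, which kept 6 members and 15487 genes in all. Areg, Ereg, Ptgs2 and Pgr were below that filter. Sequencing depth cannot be read from TPM, so how far these low values lie above 0 reads is unknown.

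**Figure D1:**
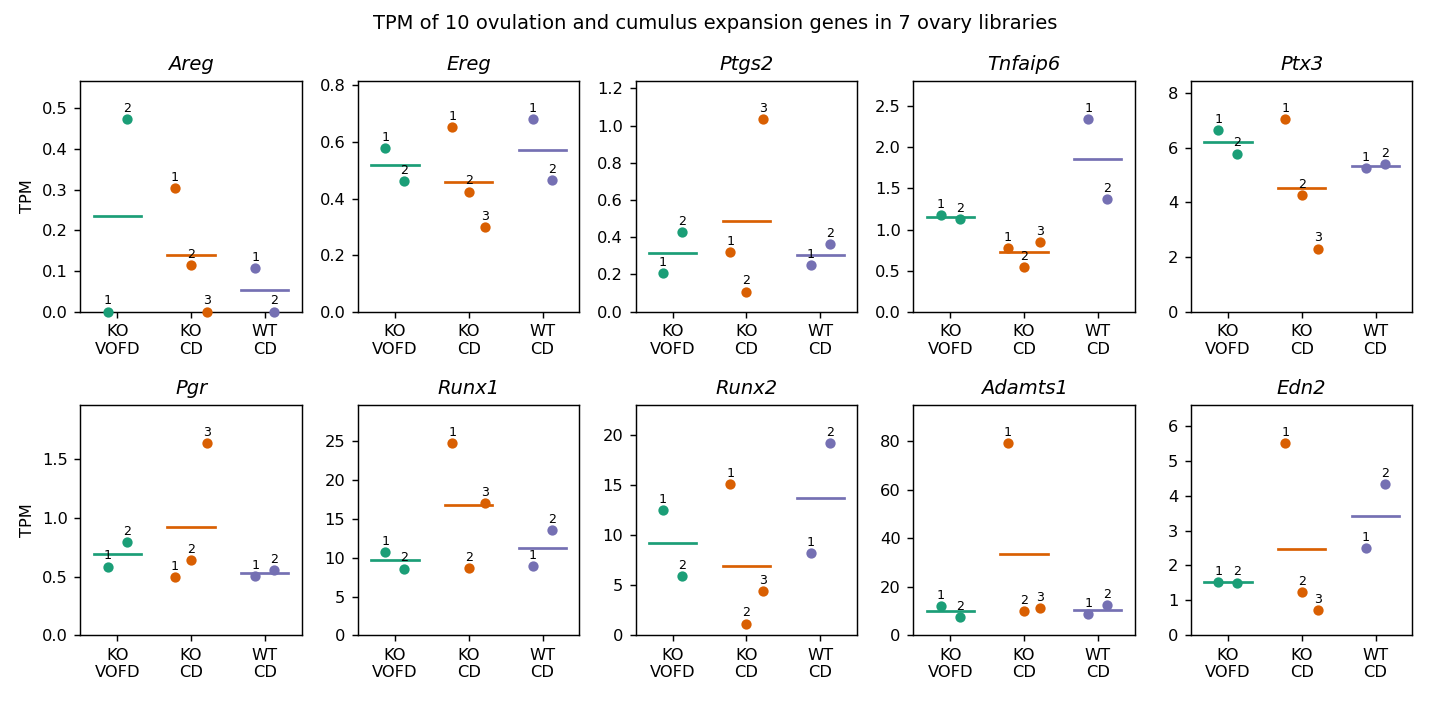
TPM of each of the 10 members (vertical axis, linear, from 0) in the 7 libraries. Each point is a library, numbered by its replicate, each bar is the group mean, and groups run from KO VOFD through KO CD to WT CD. KO CD library 1 stands at 79.3 TPM for Adamts1, where the other 6 libraries lie between 7.55 and 12.4 TPM, while Areg, Ereg and Ptgs2 stay at or below 1.03 TPM throughout.

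The signals that open the ovulatory response were at low levels in all 3 groups. Areg, which encodes amphiregulin (ENSMUSG00000029378.5, GRCm38 chromosome 5, 91139599 to 91148432, plus strand), was listed at 0 and at 0.472 TPM in KO VOFD, at 0.303, 0.114 and 0 TPM in KO CD, and at 0.107 and 0 TPM in WT CD. Each group thus had 1 library listed at 0. Ereg, the epiregulin gene beside it (ENSMUSG00000029377.5, chromosome 5, 91074622 to 91093646, plus strand), was at 0.577 and 0.460 TPM in KO VOFD, at 0.651, 0.425 and 0.300 TPM in KO CD, and at 0.679 and 0.466 TPM in WT CD. The 3 groups overlapped, and the highest library was 2.26 times the lowest. An annotated antisense gene overlaps an exon of Ereg, and whether the counting used strand is unknown.

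Ptgs2, the gene of the inducible cyclooxygenase that makes the prostaglandins needed for cumulus expansion and rupture (ENSMUSG00000032487.8, chromosome 1, 150100031 to 150108227, plus strand), was at 0.206 and 0.429 TPM in KO VOFD. It was at 0.319, 0.108 and 1.03 TPM in KO CD and at 0.252 and 0.361 TPM in WT CD. KO CD library 3 was the highest and KO CD library 2 the lowest of the 7, so the infertile group spanned both fertile groups. The neutrophil and mast cell markers summed to 189 TPM in KO CD library 2 and to 111 TPM in KO CD library 3, the most of the 7. Ptgs2 was thus lowest where that sum was highest, and the part of these cells in its values was not tested. Has2, the hyaluronan synthase gene of cumulus cells, lay between 0.0896 and 0.344 TPM in the 7 libraries.

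Pgr, the progesterone receptor gene that the LH surge induces in mural granulosa cells (ENSMUSG00000031870.16, chromosome 9, 8899833 to 8968611, plus strand), was at 0.585 and 0.792 TPM in KO VOFD. It was at 0.498, 0.639 and 1.63 TPM in KO CD, and at 0.504 and 0.556 TPM in WT CD. Library 3 of KO CD was again the highest. It also had the highest Ovgp1, the oviductal glycoprotein gene, at 352 TPM against 3.23 to 37.4 TPM in the other 6 libraries. The summed level of the 7 oviduct epithelium markers was 394 TPM in that library, between 25.0 and 31.6 TPM in the other KO CD libraries, between 13.2 and 82.0 TPM in KO VOFD and between 10.3 and 26.7 TPM in WT CD. Sntn, a marker of ciliated cells, was listed at 0 in KO VOFD library 1 and WT CD library 2. Ovgp1 made most of the sum in KO CD library 3. Of the 7 markers, 4 were highest in KO CD library 3 and 3 in KO VOFD library 2. KO VOFD library 2 had the next highest oviduct sum and also the next highest Pgr. KO CD library 1, with a sum of 31.6 TPM, had the lowest Pgr of the 7, at 0.498 TPM. Pgr is known to be expressed in the oviduct too, and the part of oviduct tissue in the Pgr values was not tested.

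For these 4 low genes a fit without the filter on low values, over 24820 genes, gave log2 fold changes between -0.11 (Ereg) and 0.28 (Pgr) for KO CD against WT CD, with limma Benjamini-Hochberg (BH) adjusted p between 0.731 and 0.859. For infertile KO CD against the 4 fertile libraries, exact 2-sided permutation tests of mean log2(TPM + 1) gave p = 0.914 for Areg, 0.486 for Ereg, 0.714 for Ptgs2 and 0.486 for Pgr.

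The matrix genes included the single member whose infertile and fertile libraries did not overlap. Tnfaip6 encodes TSG-6, which transfers heavy chains onto hyaluronan in the cumulus matrix (ENSMUSG00000053475.5, chromosome 2, 52038009 to 52056686, plus strand). It was at 0.779, 0.539 and 0.845 TPM in infertile KO CD, against 1.17 and 1.13 TPM in KO VOFD and 2.34 and 1.37 TPM in WT CD. All 3 infertile libraries lay below all 4 fertile ones, and WT CD library 1 stood highest. The log2 fold change of infertile over fertile was -0.52 (SE 0.23, 95% interval -1.05 to 0.01, limma BH adjusted p = 0.330). An exact 2-sided permutation test gave p = 0.0286, the smallest that 3 against 4 libraries allow. That p restates the lack of overlap, and it was not adjusted for the 10 members given this test. No infertile library reached 1 TPM, so Tnfaip6 passed the filter through fertile libraries alone. Groups that did not overlap were found for 15% of all tested genes in this comparison, 3.76% with the infertile libraries lower, and for 1 of the 6 tested members.

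Against each fertile group alone the Tnfaip6 difference did not pass either. For KO CD against WT CD the log2 fold change was -0.71 (SE 0.27, limma BH adjusted p = 0.444). For KO VOFD against KO CD it was 0.33 (SE 0.27, adjusted p = 0.759). Between the fertile groups, KO VOFD against WT CD, it was -0.39 (SE 0.30), a larger difference than that of KO VOFD from KO CD. Those fertile groups did not overlap either, as was so for 34.4% of all tested genes. The lowest fertile value was 1.13 TPM and the highest infertile value 0.845 TPM.

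Ptx3, which encodes pentraxin 3, a cross-linker of that matrix (ENSMUSG00000027832.5, chromosome 3, 66219910 to 66225805, plus strand), was at 6.66 and 5.79 TPM in KO VOFD, at 7.04, 4.28 and 2.31 TPM in KO CD, and at 5.27 and 5.41 TPM in WT CD. The infertile libraries held both the highest and the lowest value of the 7. The log2 fold change of KO CD over WT CD was -0.29 (SE 0.35, limma BH adjusted p = 0.722), 0.040 without KO CD library 3 and -0.60 (SE 0.28, adjusted p = 0.262) without KO CD library 1. For infertile against fertile it was -0.38 with and -0.69 without KO CD library 1 (limma BH adjusted p = 0.505 and 0.118), and between KO VOFD and KO CD 0.47 with and 0.79 without it (adjusted p = 0.732 and 0.257). Stromal and myeloid cells are also known to express Ptx3.

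Both RUNX genes were highest or next to highest in KO CD library 1. Runx1, a transcription factor gene that rises in periovulatory granulosa cells (ENSMUSG00000022952.16, chromosome 16, 92601466 to 92826149, minus strand), was at 10.8 and 8.61 TPM in KO VOFD, at 24.8, 8.70 and 17.0 TPM in KO CD, and at 8.95 and 13.5 TPM in WT CD. KO CD libraries 1 and 3 were the 2 highest, while KO CD library 2 lay among the lowest. Its log2 fold change of infertile over fertile was 0.55 (SE 0.31, 95% interval -0.14 to 1.24, limma BH adjusted p = 0.405), and 0.23 (SE 0.27, adjusted p = 0.625) without KO CD library 1. Between KO CD and WT CD it was 0.46 with and 0.14 without that library (adjusted p = 0.622 and 0.815), and for KO VOFD against KO CD it was -0.63 and -0.31 (adjusted p = 0.688 and 0.665). An annotated antisense gene overlaps an exon of Runx1 as well. Runx1 is known as a gene of blood and immune cells too, and the summed level of the 8 macrophage markers was 477, 621 and 710 TPM in KO CD libraries 1, 2 and 3, against 431 to 569 TPM in the 4 fertile libraries. All 8 had a positive log2 fold change of infertile over fertile, 0 passed the test, and their part in the Runx1 values was not tested.

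Runx2, known from bone and also induced in luteinising granulosa cells (ENSMUSG00000039153.16, chromosome 17, 44495987 to 44814797, minus strand), spanned a 16.2-fold range. It was at 12.5 and 5.88 TPM in KO VOFD, at 15.1, 1.18 and 4.45 TPM in KO CD, and at 8.24 and 19.2 TPM in WT CD. Libraries 2 and 3 of KO CD were the lowest of the 7, and library 1 of that group was the next to highest, so the infertile and fertile libraries overlapped. The log2 fold change of infertile over fertile was -0.99 (SE 0.60, limma BH adjusted p = 0.435). Without KO CD library 1 it was -1.73 (SE 0.46, adjusted p = 0.0710), and for KO CD against WT CD it was -1.24 with and -1.98 without that library (adjusted p = 0.545 and 0.125). Between KO VOFD and KO CD it was 0.74 with and 1.48 without it (adjusted p = 0.796 and 0.263). Runx2 overlaps exons of an annotated antisense gene, and its span on the opposite strand holds part of Supt3, which reached 31.9 TPM.

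Both genes of follicle rupture were highest in the same infertile library, Adamts1 by a wide margin and Edn2 by a small one. Adamts1 encodes a protease that cuts versican in the expanded cumulus matrix (ENSMUSG00000022893.14, chromosome 16, 85793827 to 85803113, minus strand). It was at 12.2 and 7.55 TPM in KO VOFD, at 79.3, 10.1 and 11.4 TPM in KO CD, and at 8.78 and 12.4 TPM in WT CD. KO CD library 1 was at 7.40 times the median of the other 6 libraries, and on the log2 scale this difference of 2.78 ranked 26th of 15487 tested genes in that library. The other KO CD libraries lay inside the range of the fertile ones. The log2 fold change of infertile over fertile was 1.01 (SE 0.60, 95% interval -0.33 to 2.35, limma BH adjusted p = 0.422) and 0.08 (SE 0.23, adjusted p = 0.836) without that library. Between KO CD and WT CD it was 0.96 with and 0.03 without it, and for KO VOFD against KO CD -1.07 with and -0.14 without it. The coefficient of variation over libraries was 129% with it and 18.8% without it.

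Edn2 encodes endothelin 2, which granulosa cells make for a short time at ovulation and which contracts the follicle wall (ENSMUSG00000028635.7, chromosome 4, 120161206 to 120167360, plus strand). It was at 1.52 and 1.51 TPM in KO VOFD, at 5.50, 1.24 and 0.715 TPM in KO CD, and at 2.49 and 4.33 TPM in WT CD. Library 1 of KO CD was the highest, WT CD library 2 came next, and the other 2 KO CD libraries were the lowest. For KO CD against WT CD the log2 fold change was -0.56 (SE 0.52, limma BH adjusted p = 0.644), and -1.14 (SE 0.31, adjusted p = 0.124) without KO CD library 1. For KO VOFD against KO CD it was -0.22 (SE 0.52, adjusted p = 0.920) with that library, and 0.36 (adjusted p = 0.590) without it. For infertile against fertile it was -0.17 with and -0.75 without it (adjusted p = 0.865 and 0.203).

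Over all comparisons no member passed limma's test. For KO CD against WT CD, 0 of 6 tested members had a BH adjusted p under 0.05, where 0.11% of all tested genes did. At an unadjusted p under 0.05 there was 1 member, Tnfaip6, where 10.3% of all genes had one. For KO VOFD against KO CD, 0 members passed (0.0452% of all genes) and 0 had an unadjusted p under 0.05 (7.94%). For KO VOFD against WT CD, 0 passed (0.0129%) and 0 had an unadjusted p under 0.05 (1.99%). For infertile against fertile, 0 passed (0.245%) and 0 had an unadjusted p under 0.05 (15.4%). Without KO CD library 1, 0 members passed in any comparison, and 3, 2, 1 and 2 members had an unadjusted p under 0.05 in the 4 comparisons in this order, where 3224, 2361, 481 and 3929 of all 15328 genes tested had one. The comparisons share libraries with each other, and the last pools both fertile groups across genotype and diet.

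The median log2 fold change of the 6 tested members was -0.42 for KO CD against WT CD, 0.05 for KO VOFD against KO CD, -0.28 for KO VOFD against WT CD and -0.28 for infertile against fertile. That of all tested genes was 0.19, -0.10, 0.08 and 0.15 in the same order, and with median-of-ratios scaling, which removes most of that shift, the members' medians were -0.56, 0.10, -0.36 and -0.38. Without KO CD library 1 the members' medians were -0.67, 0.36, -0.28 and -0.62, and those of all genes 0.24, -0.14, 0.08 and 0.19. Between KO VOFD and WT CD, which are both labelled fertile, 3 of the 6 tested members had groups that did not overlap (34.4% of all tested genes). Ptx3 was higher, and Tnfaip6 and Edn2 were lower, in KO VOFD. Groups of KO CD and WT CD, and likewise of KO VOFD and KO CD, did not overlap for 1 tested member, Tnfaip6, where 26.5% of all tested genes did not overlap in each of these comparisons.

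**Figure D2:**
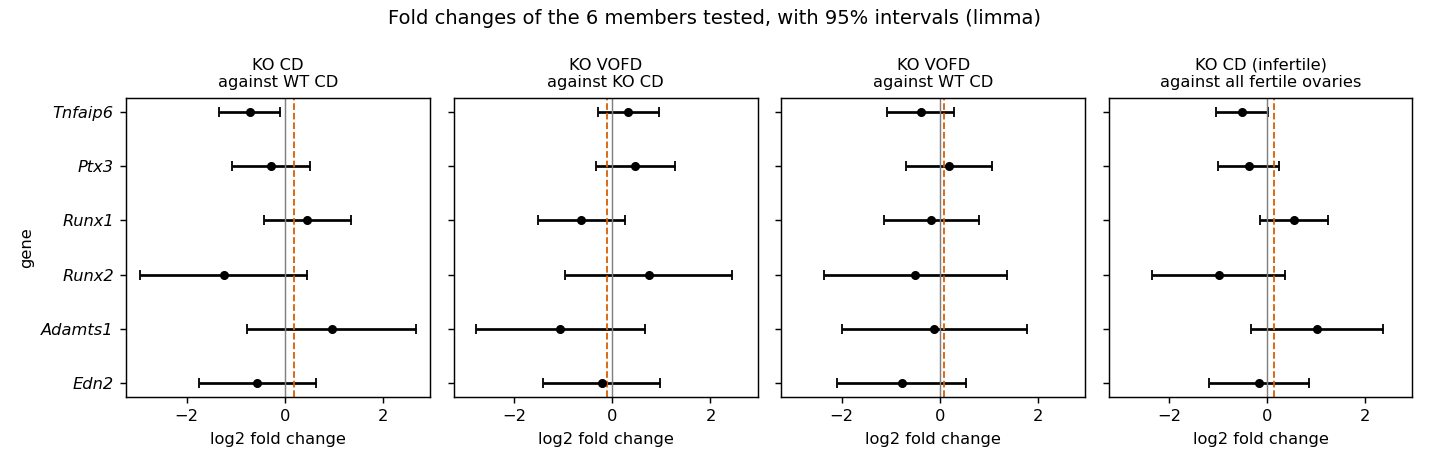
Log2 fold change (horizontal axis, log2(TPM + 1) scale) of the 6 tested members in the 4 comparisons, with 95% intervals from limma. The grey line marks 0 and the dashed line the median of all tested genes; the interval of Tnfaip6 for KO CD against WT CD, -1.34 to -0.09, is the one of the 24 that leaves out 0, and its BH adjusted p was 0.444.

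Library by library, the highest values of the members were spread over 5 of the 7. KO CD library 1 was the highest of the 7 for 4 of the 10 members, Ptx3, Runx1, Adamts1 and Edn2. KO CD library 3 was the highest for Ptgs2 and Pgr, WT CD library 1 for Ereg and Tnfaip6, WT CD library 2 for Runx2 and KO VOFD library 2 for Areg. KO VOFD library 1 and KO CD library 2 were the highest for none of the 10. The summed level of the 10 members was 46.2 and 32.6 TPM in KO VOFD, 134, 27.3 and 39.7 TPM in KO CD, and 37.6 and 57.6 TPM in WT CD. Without Adamts1 the sum was 55.0 TPM in KO CD library 1 and 45.2 TPM in WT CD library 2, and between 17.2 and 34.0 TPM in the other 5 libraries.

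In KO CD library 1 the rupture genes, both RUNX genes and the EGF-like ligands lay above the median of the other 6 libraries, and Pgr and Tnfaip6 lay below it. Adamts1, Edn2, Runx1 and Runx2 were at 7.40, 3.63, 2.51 and 2.14 times that median. Areg was at 5.64 and Ereg at 1.41 times it, each the next to highest of the 7, on levels of 0.303 and 0.651 TPM. The summed level of these 2 ligands was 0.954 TPM there, the highest of the 7, and 0.932 TPM in KO VOFD library 2. Ptgs2 was at 1.04, Tnfaip6 at 0.677 and Pgr at 0.814 times the median, and Pgr was the lowest of the 7. The same library had the highest Star, the gene that brings cholesterol to the mitochondrion for steroid synthesis, at 603 TPM, against 61.9 to 378 TPM in the other 6. It had the highest Ptgs1, the constitutive cyclooxygenase gene, at 19.6 TPM against 6.44 to 8.12 TPM. Mmp19, a matrix protease gene, was also highest there, at 17.5 TPM against 3.34 to 7.42 TPM. KO CD library 1 was the highest for 2 and the lowest for 3 of the 7 prostaglandin genes. It was the highest for 4 and the lowest for 5 of the 18 genes of proteases, the endothelin axis and other progesterone receptor targets. Of the 10 genes of LH and EGF receptor signalling it was the highest for 1 and the lowest for 4. Of the 12 luteinisation genes it was the highest for 4 and the lowest for 1.

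Granulosa cell genes that were listed as falling after the surge had a low sum in KO CD library 1. The summed level of these 11 genes was 1794 TPM there, 5687 and 6233 TPM in KO CD libraries 2 and 3, and between 2526 and 3456 TPM in the 4 fertile libraries. Inha at 879 TPM and Gja1 at 401 TPM were the largest parts of the sum in library 1. That library was the lowest of the 7 for 7 of these 11 genes, and not for Amh, Foxl2, Ccnd2 and Nr0b1. Cyp19a1, the aromatase gene, was at 7.39 TPM there and between 8.95 and 25.5 TPM elsewhere, and Inhba, an inhibin and activin subunit gene, was at 94.6 TPM there and between 193 and 431 TPM elsewhere. Fshr, the follicle-stimulating hormone receptor gene, was at 7.47 TPM against 15.9 to 25.0 TPM, and the theca androgen enzyme gene Cyp17a1 at 3.53 TPM against 81.9 to 186 TPM. The other 4 genes of the theca and interstitial list were not the lowest there, with Insl3 at 7.01, Ptch1 at 18.2, Gli1 at 6.51 and Hsd3b6, the highest of the 7, at 1.26 TPM. In whole ovaries, fewer cells of a type and less RNA per cell cannot be told apart.

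Other tissues also differed in that library, and their part in the values was not tested. All 6 smooth muscle markers were the highest of the 7 there, with a sum of 1404 TPM against 608 to 861 TPM. The 10 adipose markers summed to 3535 TPM there, to 2420 and 1616 TPM in the other KO CD libraries, and to between 271 and 1444 TPM in the fertile ones. The 5 erythroid genes summed to 2208, 3049 and 1266 TPM in KO CD libraries 1, 2 and 3, against 440 to 835 TPM in the fertile ones. All 8 oocyte genes were the lowest of the 7 there, with a sum of 212 TPM against 398 to 599 TPM. The 6 endothelial markers summed to 144 TPM there and to between 98.1 and 139 TPM elsewhere. No smooth muscle, adipose, oocyte or endothelial marker was listed at 0 in any library. The 11 immediate early genes, which respond to handling as well as to hormones, summed to 233 TPM there and to between 151 and 316 TPM elsewhere.

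**Figure D3:**
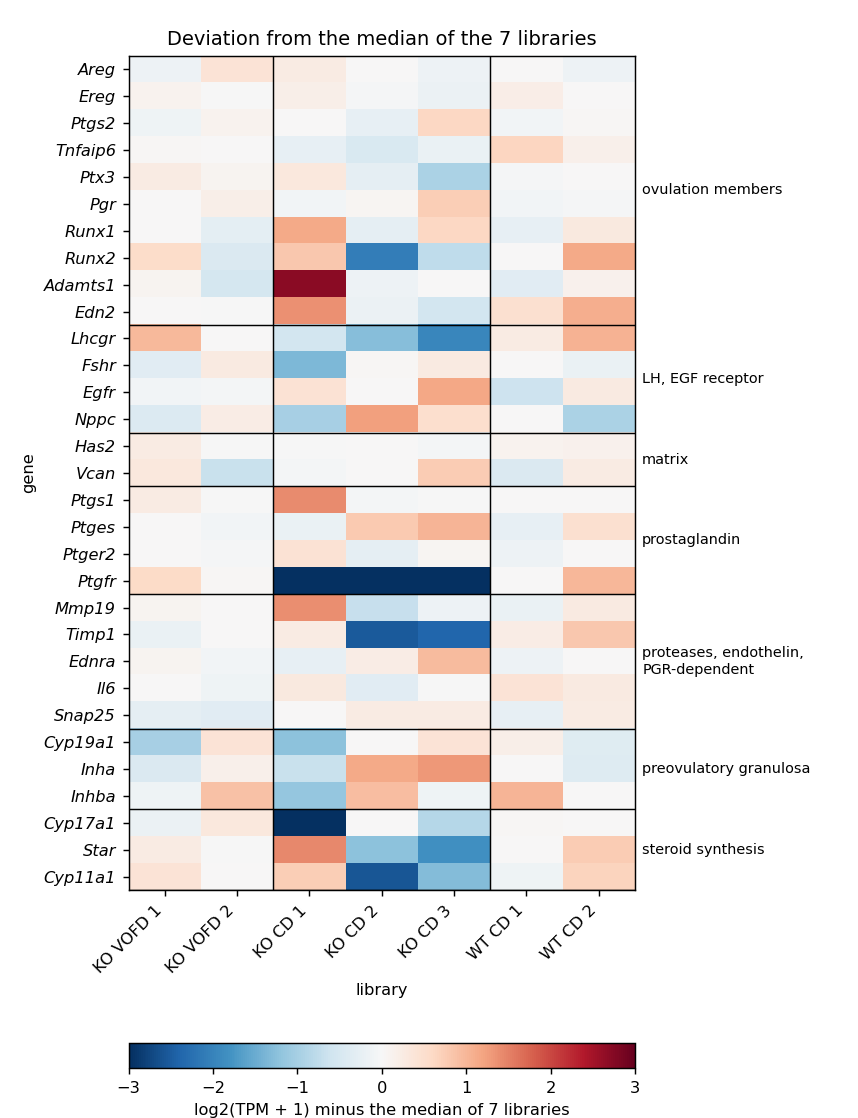
Deviation of log2(TPM + 1) from the median of the 7 libraries (colour, from -3 to 3, deeper values drawn at the end of the scale) for the 10 members and for genes of the surrounding pathways (rows), by library (columns). Some of the pathway genes drawn, among them Ptgs1, Mmp19, Fshr and Cyp17a1, were chosen after their values were seen. KO CD library 1 is red for Adamts1, Edn2, Runx1, Runx2, Ptgs1, Mmp19 and Star. It is blue for Fshr, Nppc, Inhba, Cyp19a1, Cyp17a1 and Ptgfr, the last as in the other KO CD libraries. Areg, Ereg and Ptgs2 stay pale in all columns.

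The receptor side of the pathway was present in every library. Lhcgr, the LH receptor gene, was at 162 and 81.9 TPM in KO VOFD, at 55.4, 33.3 and 20.3 TPM in KO CD, and at 97.4 and 171 TPM in WT CD. The infertile libraries were all below the fertile ones, with a log2 fold change of infertile over fertile of -1.83 (SE 0.35, limma BH adjusted p = 0.0802). Egfr, the receptor of amphiregulin and epiregulin, lay between 6.56 and 25.1 TPM. Nppc, whose peptide holds the oocyte in meiotic arrest before the surge, lay between 6.79 and 35.6 TPM. It was lowest in KO CD library 1, close to WT CD library 2 at 7.07 TPM. Of the 10 genes listed for LH and EGF receptor signalling, 0 passed the test in any of the 4 comparisons.

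Among 9 genes of the hyaluronan matrix 5 could be tested and 0 passed in any comparison. Vcan, the versican gene whose protein Adamts1 cuts, lay between 17.1 and 47.6 TPM, highest in KO CD library 3. Of 7 prostaglandin genes, Ptgfr, the luteal prostaglandin F receptor gene, was the 1 that passed. It was at 193 and 133 TPM in KO VOFD, at 3.12, 3.22 and 6.17 TPM in KO CD, and at 129 and 259 TPM in WT CD. For KO CD against WT CD its log2 fold change was -5.20 (limma, BH adjusted p = 0.00108). KO CD library 1, high in Adamts1 and Star, was thus as low in Ptgfr as the other infertile libraries. Ptger2, the prostaglandin E receptor gene of cumulus cells, lay between 4.03 and 7.18 TPM, and Ptges, a prostaglandin E synthase gene, between 29.6 and 72.0 TPM.

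Of 11 transcription factor genes of the LH response 0 passed in any comparison. Cebpb, the gene of a C/EBP factor, lay between 51.3 and 84.0 TPM, and Nrip1, a corepressor gene needed for ovulation in mice, between 19.3 and 36.5 TPM. Among 18 genes of proteases, the endothelin axis and other targets that depend on the progesterone receptor, 17 were tested and 0 passed. Ednra, a receptor gene for endothelins, lay between 12.9 and 30.7 TPM. KO CD library 1 was the lowest, close to WT CD library 1 at 13.8 TPM. Timp1, the gene of a metalloprotease inhibitor, was at 203, 29.3 and 32.2 TPM in KO CD, against 150 and 172 TPM in KO VOFD and 200 and 303 TPM in WT CD, so KO CD library 1 again lay apart from the other infertile libraries. Il6, the interleukin 6 gene of expanding cumulus, lay between 0.426 and 1.40 TPM, and Snap25, a vesicle fusion gene of ovulating granulosa cells, between 0.0499 and 0.577 TPM. The list of 12 luteinisation genes was chosen with earlier results of these data known, so its counts are not independent of them. Of the 12, 2 were lower in KO CD than in WT CD by the test, where 0.11% of all tested genes passed. For KO VOFD against KO CD 2 were higher (0.0452% of all tested genes passed). In infertile against fertile ovaries 3 were lower (0.245%), with 0 the other way in any comparison. The 3 were Ptgfr, Akr1c18, a progesterone-inactivating enzyme gene (infertile against fertile, -5.92 on the log2 scale, limma BH adjusted p = 0.00486), and Sfrp4, a secreted Wnt antagonist gene (-4.65, adjusted p = 0.0328).

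Genes were then ranked by how closely their centred log2(TPM + 1) values over the 7 libraries followed each member that reached 5 TPM, among 11482 named genes that did so too. The 3 closest to Adamts1 were Apln, the apelin peptide gene (root mean square difference 0.205, against a spread of 1.02 for Adamts1 itself), Tinagl1, a matricellular protein gene (0.217), and Prss35, a serine protease family gene expressed in the mouse ovary (0.238). Apln was at 33.0 TPM in KO CD library 1 and between 2.28 and 5.24 TPM in the other 6. Tinagl1 was at 121 TPM there and between 11.5 and 22.7 TPM elsewhere, and Prss35 at 639 TPM there and between 68.9 and 136 TPM elsewhere. These 3 genes were high in the same single library, so the likeness rests on that library.

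A different set followed Runx2. Its closest were Plin5, a lipid droplet gene (root mean square difference 0.292, against a spread of 1.02 for Runx2), Cyp11a1, the gene of the side-chain cleavage enzyme that begins steroid synthesis (0.314), and Kcnab3, a potassium channel subunit gene (0.324). Cyp11a1 was at 1993 and 1494 TPM in KO VOFD, at 2481, 250 and 602 TPM in KO CD, and at 1357 and 2365 TPM in WT CD. Runx2 and Cyp11a1 were both lowest in KO CD libraries 2 and 3 and highest in KO CD library 1 and WT CD library 2. Runx1 was followed by Pcolce, Adamts9 and Bgn (0.131 to 0.158), Edn2 by Isg15 and Cela1 (0.121 and 0.247) and Ptx3 by Cracr2b, Cox20 and Filip1 (0.0742 to 0.119). These ranks describe 7 libraries, and no test was made of them.

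**Figure D4:**
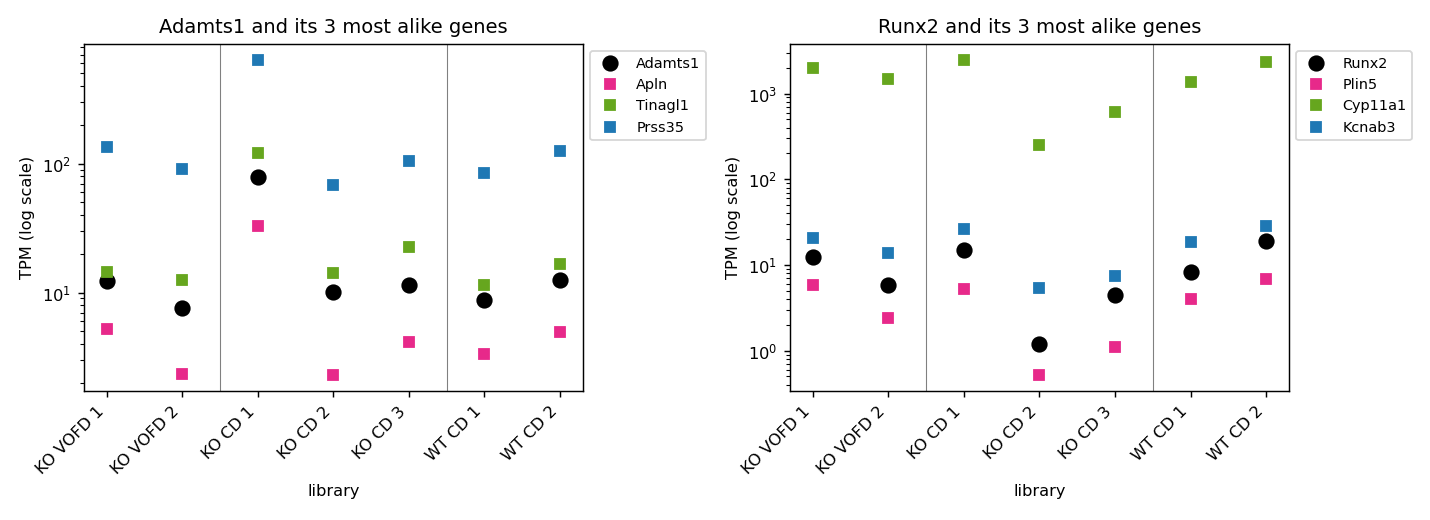
TPM (vertical axis, log scale) of Adamts1 (left) and Runx2 (right) in the 7 libraries (horizontal axis), with the 3 genes whose pattern was most like each. Circles are the member and squares the other genes; on the left all 4 genes peak in KO CD library 1, and on the right all 4 are lowest in KO CD library 2.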

How the data were processed

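RNA of mouse ovaries was measured by bulk sequencing. The values are TPM for 34866 genes in 7 columns, as deposited by the authors, and each column sums to 1000000. Per the submitters' processing notes, the build was GRCm38; the aligner, counter, annotation and strand setting were not given in the sources used here. TPM keeps no depth, so no counting intervals or floors were computed. Columns were matched to samples by their sample number, and groups were taken from the titles. No libraries held identical values. Symbols were matched for 34582 IDs and coordinates taken from GENCODE M21 (GRCm38).

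Values were tested as log2(TPM + 1) for genes with at least 1 TPM in at least 2 libraries, in R 4.3.3 with limma 3.58.1, an intensity trend, 2-sided tests and Benjamini-Hochberg (BH) adjustment over all 15487 genes at a threshold of 0.05. Fold changes on this scale understate changes of low genes. The 3 groups entered 1 fit; infertile against fertile was a second fit with 2 group means. Single members were also given an exact permutation test over 3 against 4 libraries, which counts 35 splits. The fits were also run on simulated data, whose outcome is not given here. How small a change they would find is thus not shown. All members, 16 further pathway genes and any list gene past the threshold are named by rule, as are the 3 most alike genes of each member that reached 5 TPM (1 of those for Edn2 is not reported here); other names were chosen after their values were seen. The members and lists were chosen with earlier results of these data known. Alternatives covered pseudocounts, filters, scalings, the variance prior, the libraries in the fit, sample weights, the replicate number as a block and leaving out each library. Tables were made with Python 3.11.15 and pandas 2.3.3.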

Additional observations from a re-analysis of the deposited data

Results flagged for a closer look

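Snap25 was 1 of 26 genes (the 10 members and 16 pathway genes) examined for a library far from the others among the 4 fertile ones. It was at 0.0914 and 0.0499 TPM in KO VOFD, and at 0.122 and 0.567 TPM in WT CD, library 2 of WT CD being the far one. The gap to the nearest library was 0.860 of the whole range, above Dixon's 95% critical value for 4 libraries. Chance gives such a gap in about 1 in 20 groups. None of the 10 members had such a library, and groups of 2 or 3 libraries were not examined in this way. In KO CD, outside this check, Snap25 was at 0.322, 0.577 and 0.566 TPM, and WT CD library 2 lay within that range. Snap25 was below the filter on low values, and the 4 fertile libraries pool both genotypes and both diets.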

How the results depend on the processing

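In each of the 4 comparisons 0 members passed under every alternative run; Tnfaip6 and Edn2 had no value with a filter at 5 TPM. Of 418 refitted member fold changes, 407 kept their direction. Those that turned, with their range on leaving out 1 library each, were Ptx3 for KO CD against WT CD (0.040 with the replicate block, -0.60 to 0.040), Edn2 for KO VOFD against KO CD (-0.60 to 0.36), Edn2 for infertile against fertile (0.21 with the block, -0.75 to 0.21), and, for KO VOFD against WT CD, Runx1 (-0.45 to 0.10), Runx2 (-1.07 to 0.061) and Adamts1 (-0.42 to 0.20). The cause was not tested.

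Counts of all genes past the threshold moved more. For KO CD against WT CD the 17 genes became 8 with a pseudocount of 5, 3 with no filter, 48 with sample weights and 27 with the replicate block, and 4 to 174 without 1 library; with median-of-ratios scaling 7 were higher and 12 lower, against 9 and 8. For KO VOFD against KO CD the 7 became 4 with a pseudocount of 0.1 or only the groups compared, 179 with sample weights, and 3 to 104 without 1 library. For KO VOFD against WT CD the 2 became 7 with a pseudocount of 0.1, 5 with no filter or without the trend, 21 with only the groups compared, 15 with sample weights, 12 with the replicate block, and 2 to 14 without 1 library. For infertile against fertile the 38 became 4 with no filter, 64 with median-of-ratios scaling, 59 with quantile normalisation, 299 with sample weights, 15 with the replicate block, and 15 to 665 without 1 library. The highest count in 3 of these ranges came without KO CD library 1, and in KO VOFD against WT CD without KO CD library 3.

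The replicate numbers are not said to mark a shared litter or day. Same-numbered libraries' deviations from their group means correlated between -0.186 and 0.0458 over genes. In a group of 2 the deviations mirror each other, so these correlations cannot show whether the numbers mark a shared litter or day. The block also takes up KO CD library 3, the only one numbered 3. Where leaving out a library left 1 in a group, that library was assumed to vary like the others. What depth limits cannot be read from TPM; the 4 members below the filter are the least certain.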
